A study of Mus musculus with 24 samples.

Results

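The genes described here encode the proteins of the mitochondrial ribosome. They were chosen by symbol alone: every row of the deposited table whose name begins with Mrpl or Mrps followed by a digit. That gave 76 of the 23235 genes in the table, 47 Mrpl and 29 Mrps genes on 17 chromosomes. Of these, 74 reached a mean of 1 FPKM over the 8 columns of the table, as did 10262 genes in all, and these are called tested below. Mrpl23, at 0.174 to 0.838 FPKM, and Mrps36, at 0.289 to 0.864 FPKM, did not. FPKM counts fragments per length of transcript, scaled to the size of the library, so levels can be compared between genes.

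The cells were T11, a claudin-low line from a mouse mammary tumour that, per the labels, carries luciferase in every group. They received FPP-1746-Omomyc, either of its parts (Omomyc, FPP-1746) or PBS, each for 3 h and for 6 h and the peptides at 5 µM. With 3 biological replicates a group, this made 24 samples in 8 groups, and 3 samples whose titles put them in the 6 h group of FPP-1746-Omomyc have a treatment tag of 3 h; the titles were followed. Omomyc, made from the dimerisation domain of MYC, binds MAX and DNA in place of MYC. FPP-1746 serves as a peptide that carries cargo into cells, and FPP-1746-Omomyc, called the fusion here, joins both. Only averaged values of the 8 groups were analysed here, so replicate error is unknown, nothing could be tested and no difference below has a replicate check.

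Mitochondria keep a ribosome of their own, which makes the membrane core subunits of the respiratory chain from mitochondrial mRNAs. Its RNAs are encoded in the mitochondrial genome, but all of its proteins are encoded in the nucleus, made in the cytosol and imported. Many descend from the proteins of bacterial ribosomes and others were added in mitochondria; MYC is known to promote the expression of many nuclear genes for mitochondrial proteins.

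Promoter windows of 5 of these genes show the start regions behind the values that follow. Mrps2 had the lowest ratio of the fusion to PBS at 3 h, and Mrps18b was the other gene past 2-fold at 3 h. The start of Mrps18b lies within 1000 bases of that of another gene. Mrps15 had the lowest ratio at 6 h, and Mrpl12 was the most highly expressed gene past 2-fold at 6 h. Mrpl37 had the lowest 6 h ratio among the 5 genes whose window holds the E-box CACGTG. The windows are RefSeq's, on GRCm38.p6, from 250 bases before to 50 after the start, at chr2:28467816-28468115 (plus strand), chr17:35916391-35916690 (minus), chr4:126046678-126046977 (plus), chr11:120484387-120484686 (plus) and chr4:107066817-107067116 (minus). Capitals mark a match, on either strand, to CACGTG (the E-box bound by MYC and MAX), CACGCG (a variant of it), GCGCATGC or its reverse complement GCATGCGC (NRF1), CCGGAAG (ETS factors and GABP), AAGATGG (YY1) or CCAAT (NF-Y).
Mrps2: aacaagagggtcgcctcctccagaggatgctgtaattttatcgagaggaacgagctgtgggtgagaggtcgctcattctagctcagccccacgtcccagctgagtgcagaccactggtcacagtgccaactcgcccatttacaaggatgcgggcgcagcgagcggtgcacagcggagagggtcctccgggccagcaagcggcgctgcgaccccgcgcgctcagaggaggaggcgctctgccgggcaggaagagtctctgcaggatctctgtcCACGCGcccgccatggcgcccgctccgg
Mrps18b: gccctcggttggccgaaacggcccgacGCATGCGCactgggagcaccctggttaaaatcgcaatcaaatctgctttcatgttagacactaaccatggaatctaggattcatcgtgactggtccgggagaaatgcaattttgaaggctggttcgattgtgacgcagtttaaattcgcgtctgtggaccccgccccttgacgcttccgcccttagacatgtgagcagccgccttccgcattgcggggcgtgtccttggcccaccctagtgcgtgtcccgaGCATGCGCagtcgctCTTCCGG
Mrps15: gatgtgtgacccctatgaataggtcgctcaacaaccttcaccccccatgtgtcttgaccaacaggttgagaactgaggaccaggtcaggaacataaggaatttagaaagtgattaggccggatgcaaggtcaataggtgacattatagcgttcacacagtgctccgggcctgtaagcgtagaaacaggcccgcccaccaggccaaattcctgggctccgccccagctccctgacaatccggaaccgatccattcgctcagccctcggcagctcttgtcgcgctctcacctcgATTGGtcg
Mrpl12: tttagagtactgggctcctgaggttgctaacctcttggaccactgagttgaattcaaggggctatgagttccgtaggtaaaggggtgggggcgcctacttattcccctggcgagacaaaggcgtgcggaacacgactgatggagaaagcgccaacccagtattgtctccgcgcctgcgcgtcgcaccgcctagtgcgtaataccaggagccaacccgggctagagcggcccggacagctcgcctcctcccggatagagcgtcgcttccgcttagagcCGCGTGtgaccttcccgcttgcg
Mrpl37: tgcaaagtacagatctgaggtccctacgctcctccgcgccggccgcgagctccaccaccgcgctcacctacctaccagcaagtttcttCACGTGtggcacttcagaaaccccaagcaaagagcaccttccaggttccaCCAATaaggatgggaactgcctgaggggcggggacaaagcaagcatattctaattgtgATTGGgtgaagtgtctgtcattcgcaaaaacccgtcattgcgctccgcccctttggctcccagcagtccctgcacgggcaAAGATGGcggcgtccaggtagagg

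The E-box of Mrpl37 begins 162 bases before the start, and its AAGATGG begins at base 27 after it. In Mrps2 and Mrpl12 the capitals show CACGCG, or its complement, at bases 23 and 28 after the start. Mrps18b holds GCATGCGC 223 bases before the start and again at base 29 after it, and CCGGAAG, read on the other strand, at base 44. No marked motif overlapped another in these 5 windows.

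RefSeq windows were matched to 65 of the 74 tested genes. CACGTG stood in 5 of them (Mrpl2, Mrpl20, Mrpl36, Mrpl37 and Mrps18c), or 7.69%, against 12.6% of the 7334 windows of tested genes and 8.09% of all 27025. CCGGAAG was in 24, or 36.9%, of the windows of the mitochondrial ribosomal protein genes, against 22.3% of the tested and 9.93% of all windows. AAGATGG was in 13 of 65, against 8.92% and 7.28%, and the NRF1 letters in 12.3%, against 6.83% and 3.05%. CACGCG (13 of 65, against 21.9% of tested genes) and CCAAT (40.0%, against 44.1%) were near the share of tested genes. The median log2 ratio of the fusion to PBS at 6 h was -0.59 for the 5 genes with CACGTG and -0.46 for those without. At 3 h the order was reversed, at -0.09 and -0.20. With and without the other motifs, the 6 h medians were -0.48 and -0.44 (CCGGAAG), -0.55 and -0.32 (CCAAT), and -0.47 and -0.47 (AAGATGG). They were -0.32 and -0.49 for CACGCG and -0.34 and -0.48 for the NRF1 letters. A match is a description of letters, not of a bound site.

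In PBS and with either part alone, these genes were well expressed and steady. Their mean over the 8 columns ran from 7.60 FPKM (Mrps33) to 406 FPKM (Mrpl13), with a median of 52.9 FPKM. Of all tested genes, 82.3% lay below that median. Next to Mrpl13, the highest means were those of Mrpl12 (318 FPKM), Mrps6 (312 FPKM), Mrpl33 (252 FPKM) and Mrpl20 (233 FPKM), and the lowest after Mrps33 were Mrps25 (8.75 FPKM), Mrpl41 (8.97 FPKM), Mrpl19 (9.78 FPKM) and Mrpl17 (11.1 FPKM). Over the 6 columns without the fusion, the highest value of a gene was a median of 1.12 times its lowest and at most 1.41 times (Mrpl41), so all 74 stayed within 1.5-fold. The proteins meet in a particle of fixed make-up, while the levels of their mRNAs spanned this range.

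With either part alone, none of the 74 genes differed from PBS by 1.5-fold. Log2 ratios are of FPKM + 1, so ratios of low genes are pulled towards 0. FPP-1746 gave a median log2 ratio to PBS of -0.004 at 3 h and -0.05 at 6 h, and Omomyc -0.02 and -0.03. The widest single values were -0.25 (Mrps18b, Omomyc at 3 h) and 0.18 (Mrpl48, Omomyc at 3 h). The background of 1.5-fold differences either way among all tested genes was 0.935% and 0.906% for FPP-1746 at 3 h and 6 h, and 0.974% and 0.935% for Omomyc. PBS at 6 h against PBS at 3 h, with no peptide, had a median of 0.08 over the 74 genes and none past 1.5-fold, against 3.98% of all tested genes. All of these are free of the fusion and give the scale on which its values can be read.

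With the fusion, these genes lay on both sides of PBS at 3 h and nearly all below it at 6 h. At 3 h, 46 lay below PBS and 28 above, with a median log2 ratio of -0.18; at 6 h, 67 lay below and 7 above, with a median of -0.46. Over all tested genes the medians were 0.003 and -0.03. In bulk RNA, fewer cells of a kind and less RNA per cell cannot be told apart. At least 1.5-fold lower were 11 of 74 at 3 h (14.5% of all tested genes were) and 28 of 74 at 6 h (15.2%). One gene, Mrpl33, was 1.5-fold higher at 3 h (15.7% of all tested genes) and 0 at 6 h (17.4%). So the 3 h count of lower genes is near the background share, while the 6 h count is above it. At least 2-fold lower were 2 genes at 3 h (4.42% of all tested) and 5 at 6 h (3.34%), and 0 were 2-fold higher at 3 h (6.13%) or at 6 h (7.13%).

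**Figure D1:**
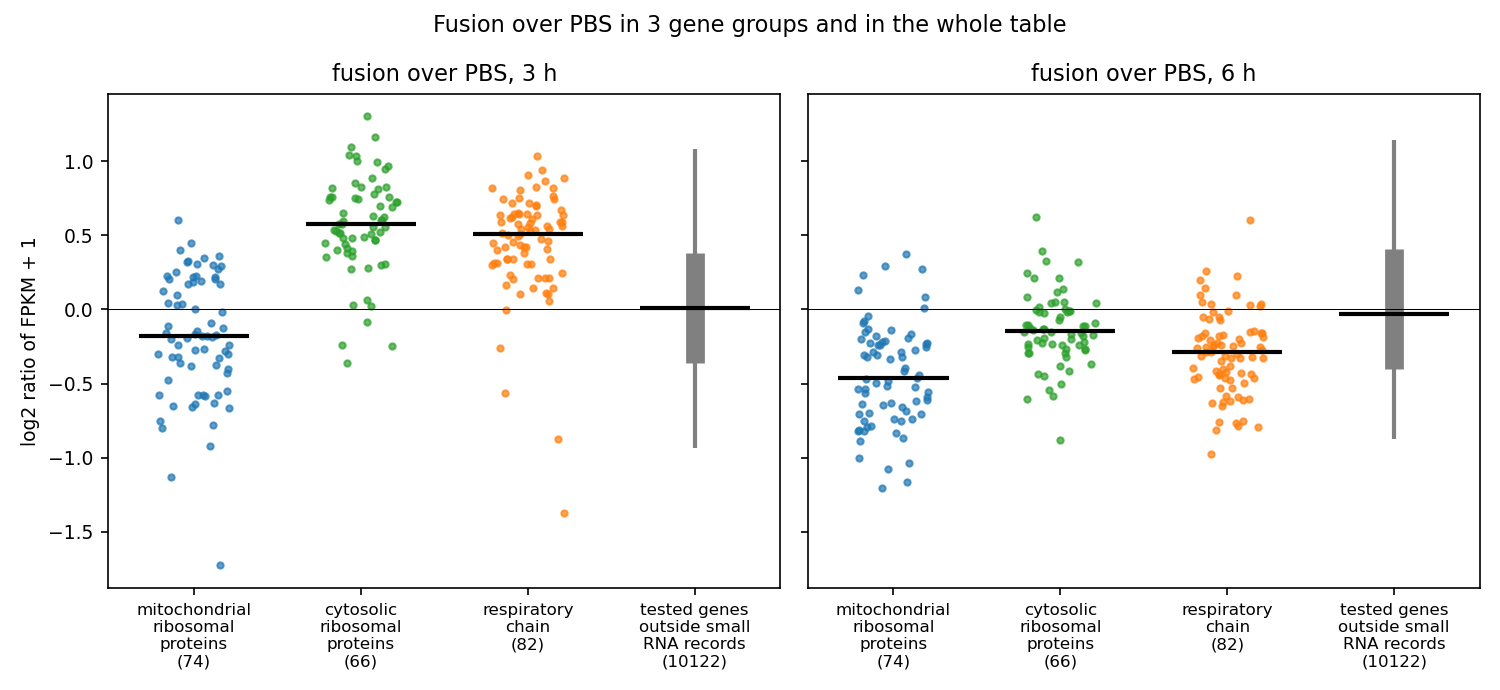
Log2 ratio of FPKM + 1 of the fusion over PBS at 3 h (left) and 6 h (right). Points are genes of the mitochondrial ribosome (74), the cytosolic ribosome (66) and the respiratory chain (82), black lines are medians, and the grey bar spans the middle 50% (thin line, 5th to 95th percentile) of the 10122 tested genes outside records of small RNAs; mitochondrial ribosomal protein genes have the lowest median at both times, -0.18 and -0.46.

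The scale of the columns matters most at 3 h. The summed FPKM of all genes was 594951 in the fusion column at 3 h and 486989 in PBS, and its part in the 3 h ratios was not tested. Scaling every column to the same sum without small RNA records shifted the median of all tested genes at 3 h to -0.25 and that of the 74 genes to -0.46. Under it 26 were 1.5-fold lower and 0 higher, against 26.5% and 8.21% of all tested genes, and 10 instead of 28 lay above PBS. At 6 h the same scaling gave 22 genes 1.5-fold lower (12.3% of all tested genes), and scaling to the same median gave 35 (19.6%). The summed FPKM of the mitochondrial ribosomal protein genes was 5853 in PBS and 5850 with the fusion at 3 h, and 6015 and 4286 at 6 h, ratios of 0.9995 and 0.712 as deposited.

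Set against the 6 columns without the fusion, few of these genes stayed inside. At 3 h the fusion value was below all 6 columns for 44 genes (39.8% of all tested genes) and above all 6 for 25 (40.6%); at 6 h it was below for 63 (41.2%) and above for 7 (38.4%). These 6 columns are 3 treatments at 2 times, not replicates. All 25 genes above the range at 3 h were below it at 6 h, 33 were below it at both times, and 7 went from below to above.

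**Figure D2:**
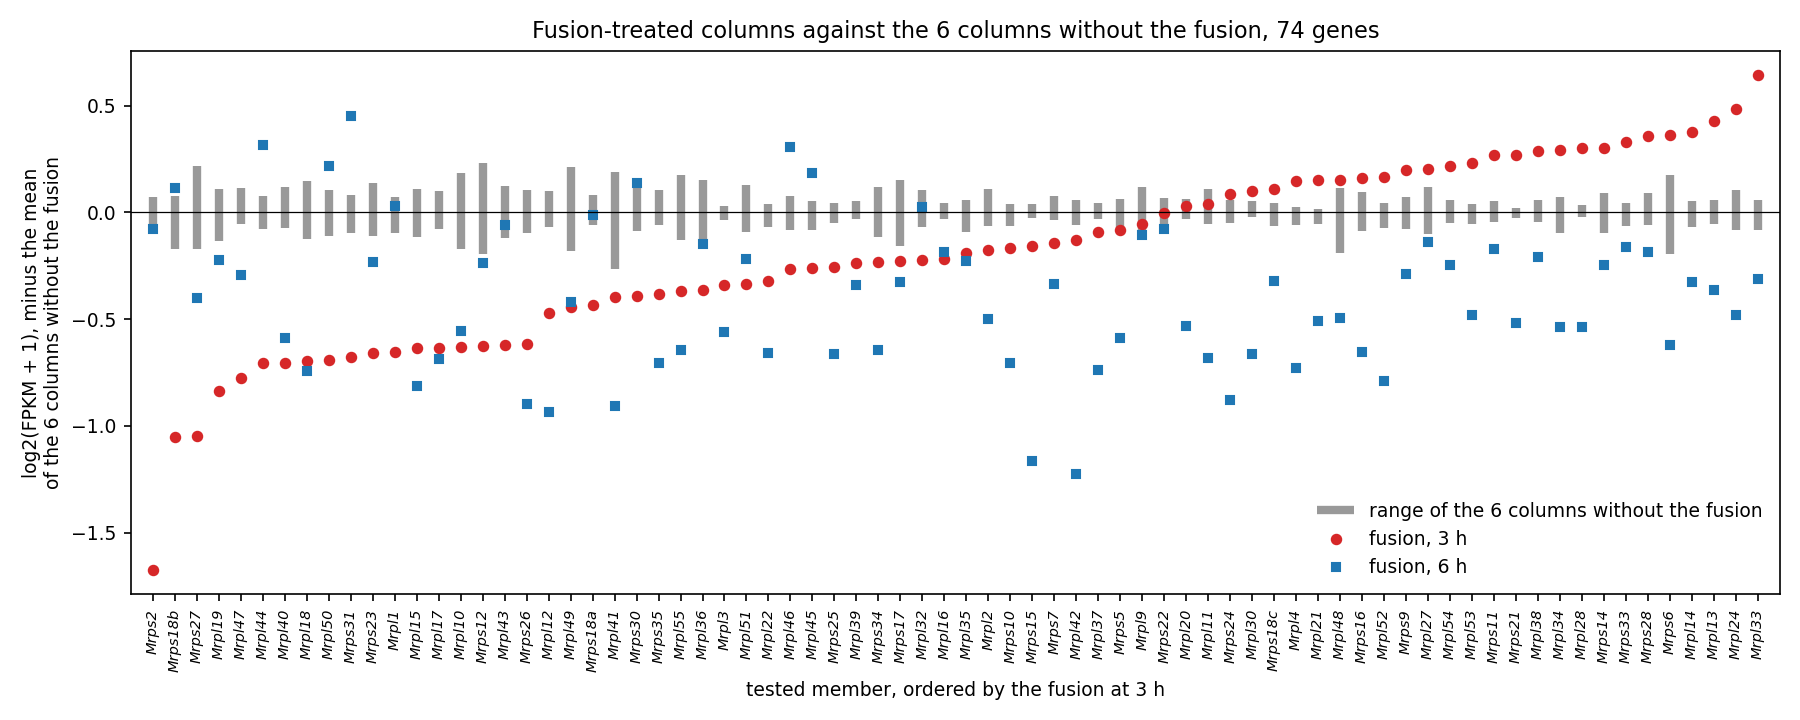
Each of the 74 tested genes, ordered by its 3 h value, on a log2 scale of FPKM + 1 centred on the mean of the 6 columns without the fusion. Grey bars span those 6 columns, red dots are the fusion at 3 h and blue squares at 6 h; 44 red dots lie below their bar and 25 above, and 63 blue squares lie below.

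Among the ribosomal proteins inherited from bacteria, those of the small subunit hold the lowest value at each time. Mrps2, the mitochondrial version of the bacterial small-subunit protein S2, stood at 49.2 FPKM at 3 h in PBS, at 44.9 with Omomyc and with FPP-1746, and at 14.2 with the fusion. At 6 h it stood at 49.9, 48.2, 47.5 and 44.8 FPKM in the same order. Only the fusion column at 3 h stands away from the other 7, a log2 ratio of -1.73, and the 6 h ratio was -0.15. Mrps2 lies on chromosome 2 from 28323586 to 28326697 (mm9, the build of the table).

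Mrps15 showed the reverse order of times. It stood at 82.4, 79.9, 80.6 and 72.7 FPKM for PBS, Omomyc, FPP-1746 and the fusion at 3 h, and at 83.6, 80.6, 80.6 and 35.8 FPKM at 6 h. Its log2 ratio was -0.18 at 3 h and -1.20 at 6 h, the lowest of all 74 at 6 h; it lies on chromosome 4 from 125724172 to 125732780. Mrps24 was level with PBS at 3 h (0.03) and at -0.87 at 6 h. Mrps28, at 0.36 at 3 h and -0.28 at 6 h, and Mrps6, at 0.19 and -0.56, were above PBS first and below it later; for Mrps6 the 3 h sign turned under quantile normalisation (-0.14) and under the same-sum scaling (-0.10). The list of small-subunit proteins of bacterial families holds Mrps18c but not Mrps18a or Mrps18b. All 16 of its tested genes lay below PBS at 6 h, with a median of -0.48 and 5 past 1.5-fold (15.2% of all tested genes). At 3 h their median was 0.08, with 7 below PBS and 1, Mrps2, past 1.5-fold (14.5% of all tested genes). This 3 h median was -0.10 under quantile normalisation and -0.21 under the same-sum scaling.

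The listed large-subunit genes of bacterial families, 28 of them tested, also lay below PBS at 6 h without exception in the deposited values. Their median was -0.51, with 11 past 1.5-fold (15.2% of all tested genes). Under the same-sum scaling 1 of the 28, Mrpl1, was above (0.03). Mrpl12, which encodes the stalk protein that contacts translation factors, stood at 341, 335, 334 and 253 FPKM for PBS, Omomyc, FPP-1746 and the fusion at 3 h. At 6 h the values were 376, 364, 356 and 183 FPKM. The fusion columns are the lowest at both times, with log2 ratios of -0.43 and -1.04; the gene lies on chromosome 11 from 120345983 to 120350068.

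Mrpl33, whose product is a small protein of the large subunit, was the highest ratio of the 74 at 3 h. In the same order it stood at 247, 251, 244 and 376 FPKM at 3 h, and at 237, 239, 227 and 194 FPKM at 6 h. The fusion column was the highest of all 8 at 3 h and the lowest at 6 h, with log2 ratios of 0.60 and -0.29. Under the same-sum scaling the 3 h ratio was 0.32. Mrpl24, of a family near the exit of the peptide tunnel (0.45 and -0.44, its table locus shared with another gene), Mrpl28 (0.32 and -0.54) and Mrpl14 (0.32 and -0.32) had the same order. Mrpl13, at 0.40 and -0.31, did as well, except that quantile normalisation put it at -0.07 at 3 h. Lowest at 3 h in this group were Mrpl19 (-0.78), Mrpl47 (-0.75) and Mrpl1 (-0.64), which were at -0.33, -0.29 and -0.04 at 6 h. The lowest at 6 h after Mrpl12 were Mrpl15 (-0.89), Mrpl18 (-0.83) and, named for its low level, Mrpl17 (-0.78), which were all close to -0.58 at 3 h (Mrpl15 -0.58, Mrpl18 -0.57, Mrpl17 -0.58).

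**Figure D3:**
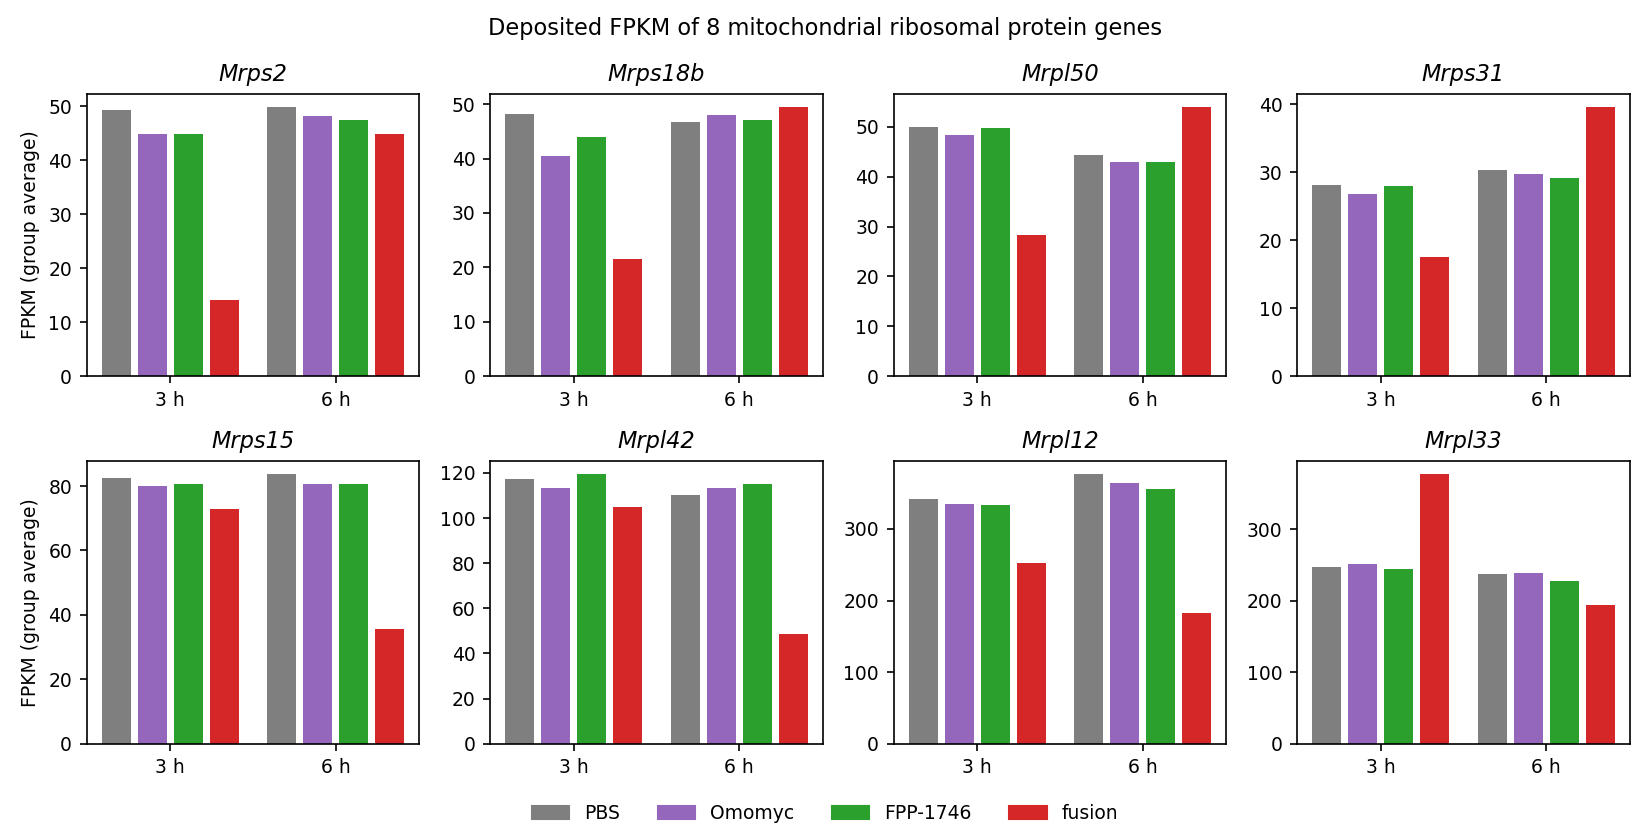
Deposited FPKM of 8 genes in the 8 groups, as bars from 0: PBS (grey), Omomyc (purple), FPP-1746 (green) and the fusion (red) at 3 h and 6 h; each bar is 1 group average and has no error bar. Mrps2, Mrps18b, Mrpl50 and Mrps31 are low with the fusion at 3 h only, Mrps15, Mrpl42 and Mrpl12 are lowest at 6 h, and Mrpl33 is high at 3 h.

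Proteins that the mitochondrial ribosome gained after its bacterial origin include 3 of the 5 genes past 2-fold at 6 h and 6 of the 7 above PBS at 6 h. Mrpl42 stood at 117, 113, 119 and 105 FPKM for PBS, Omomyc, FPP-1746 and the fusion at 3 h, and at 110, 113, 115 and 48.5 FPKM at 6 h. Its 6 h log2 ratio was -1.17 after -0.16 at 3 h. Mrpl41 (-0.27, then -1.08) followed the same course from a low level of 11.3 FPKM in PBS at 6 h to 4.81 FPKM; it shares its table locus with another gene. Mrps26, which reached 127 FPKM in PBS but 63.1 FPKM with the fusion at 6 h, was at -0.58 at 3 h and at 49.6% of its PBS level at 6 h, just past 2-fold.

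Mrpl50 and Mrps31 took the opposite course. Mrpl50 stood at 49.9, 48.5, 49.9 and 28.3 FPKM at 3 h and at 44.4, 42.9, 42.9 and 54.0 FPKM at 6 h, for PBS, Omomyc, FPP-1746 and the fusion. Mrps31 stood at 28.1, 26.7, 28.0 and 17.5 FPKM at 3 h and at 30.4, 29.8, 29.2 and 39.6 FPKM at 6 h. Both were the lowest of the 8 columns with the fusion at 3 h and the highest at 6 h, with log2 ratios of -0.80 and 0.28 for Mrpl50 and of -0.65 and 0.37 for Mrps31. Mrpl44, which has a ribonuclease III fold, did likewise (-0.63 and 0.29).

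Of the 18 tested large-subunit genes specific to mitochondria, 13 lay below PBS at 3 h and 13 at 6 h, with medians of -0.25 and -0.32. At least 1.5-fold lower were 3 at 3 h (14.5% of all tested genes) and 6 at 6 h (15.2%). The 5 above PBS at 6 h were Mrpl44, Mrpl45 (a protein near the tunnel exit at the inner membrane, 0.13), Mrpl46 (0.23), Mrpl50 and Mrps30 (0.01), which sits in the large subunit despite its name; Mrps30 was at -0.09 under the same-median scaling. Mrpl38 was among the highest at 3 h (0.30) and at -0.16 at 6 h. Of the 9 small-subunit genes specific to mitochondria, 8 lay below PBS at each time, with medians of -0.40 and -0.62. Past 1.5-fold were 3 and 5 of them, against the same shares of all tested genes. Mrps33, the exception at 3 h (0.34), was at -0.20 at 6 h, and Mrps31 was the exception at 6 h. Mrps25 was at -0.30 and -0.66.

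Only Mrps27 and Mrpl40 were at least 1.5-fold lower at both times, 2.70% of the 74 genes against 3.47% of all tested genes, so this count is not above the background. Mrps27, a pentatricopeptide repeat protein of the small subunit, had 24.9 FPKM with the fusion at 3 h, 51.9% of its PBS level, and at 6 h 61.3 FPKM in PBS against 39.7, log2 ratios of -0.92 and -0.62. Mrpl40 had 55.5 and 34.6 FPKM at 3 h, and 62.1 and 37.7 FPKM at 6 h, ratios of -0.67 and -0.71. Mrps27 shares its table locus with another gene. Mrps23 (-0.66 and -0.31) passed at 3 h only.

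Mitochondria use several versions of the bacterial protein S18, and their genes differed. Mrps18b stood at 48.2, 40.5, 44.0 and 21.5 FPKM at 3 h and at 46.7, 47.9, 47.2 and 49.5 FPKM at 6 h, for PBS, Omomyc, FPP-1746 and the fusion. It was low with the fusion at 3 h only, at -1.13, and at 0.08 at 6 h, which turned to -0.02 under the same-median scaling. Mrps18a was at -0.38 and -0.09, and Mrps18c at 0.12 and -0.32; the 3 h sign of Mrps18c turned under the same-sum scaling (-0.16), and the 6 h sign of Mrps18a under quantile normalisation (0.02). Mrpl55, not placed in a role list, was at -0.33 and -0.82. Mrps36, also not placed and now known as a part of the oxoglutarate dehydrogenase complex, and Mrpl23 were too low to give ratios.

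**Figure D4:**
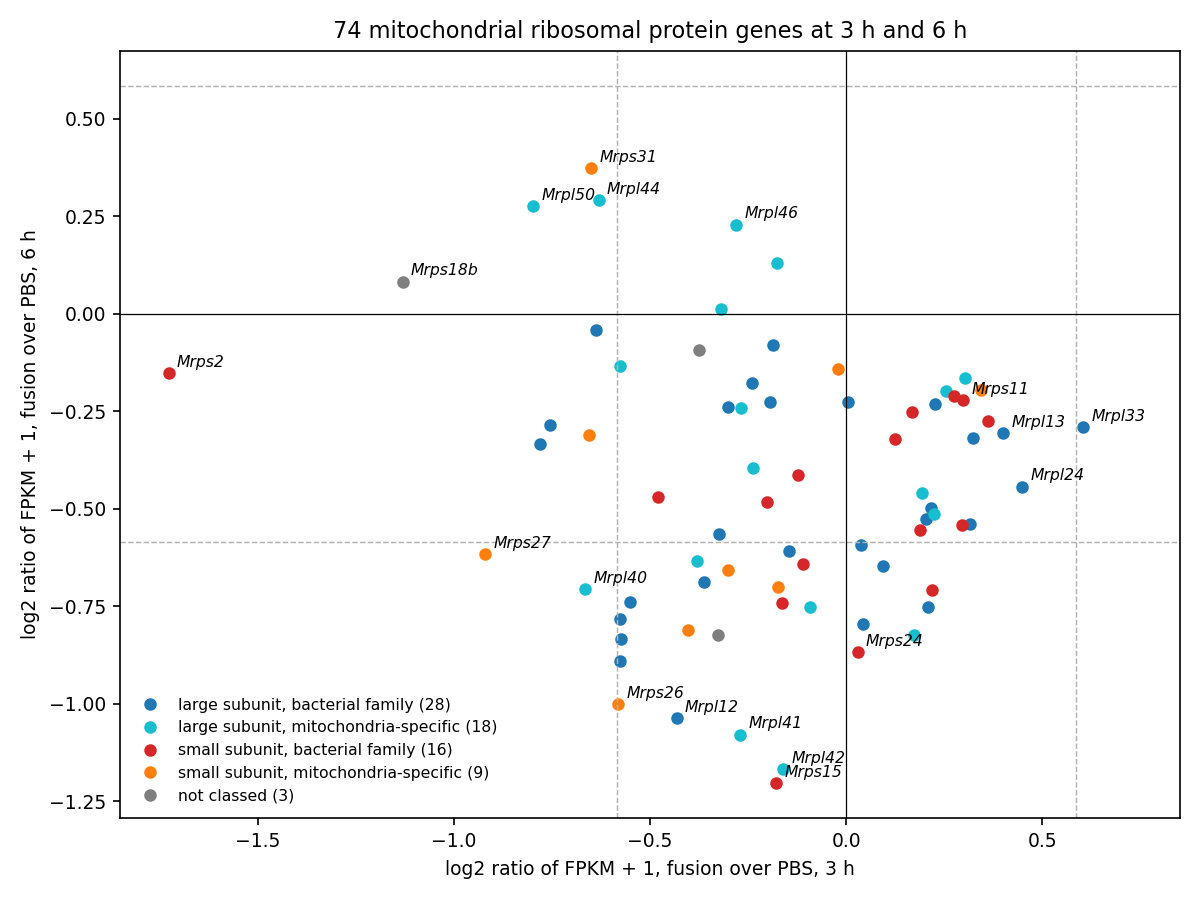
Log2 ratio of FPKM + 1 of the fusion over PBS at 3 h (x axis) and at 6 h (y axis) for the 74 tested genes, coloured by role; dashed lines mark 1.5-fold. Genes in the upper left are below PBS at 3 h and above it at 6 h (7), those in the lower right are above and then below (28), 39 are below at both times, and the upper right is empty.

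The genes did not keep their order between the times. Across the 74 genes the ratios of the 2 times had a Spearman correlation of -0.01 and a Pearson correlation of -0.10, against 0.38 and 0.44 across all 10262 tested genes; these describe points that share libraries and are not independent. Below PBS at both times were 39 of the 74 (52.7%), against 31.1% of all tested genes. Above PBS at 3 h and below at 6 h were 28 (37.8%, against 20.5%), below and then above 7 (9.46%, against 18.2%), and above at both times 0 (against 29.6%). The course from above to below was more common in 67 of 82 respiratory chain genes and 46 of 66 cytosolic ribosomal protein genes. The sign at 3 h turned under at least 1 of the 3 other scalings for 19 of the 74 genes, and the sign at 6 h for 4.

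Transcript length moved with the 3 h values. With lengths from GENCODE M21, matched by symbol to all 74 genes, the Spearman correlation between length and the 3 h ratio was -0.43 across these genes, and 0.08 at 6 h. Some of these lengths exceed the gene's whole locus in the table, so they are not those behind its FPKM. Mrps26, for example, has 4278 bases in M21 but a table locus from 130389493 to 130391130. Mrpl51, Mrps17, Mrpl32 and Mrps16 are further cases, and all are among the genes of at least 2000 bases. Across 8980 tested genes it was -0.10 and 0.21, across 80 respiratory chain genes -0.44 and -0.20, and across 65 cytosolic ribosomal protein genes -0.11 and -0.04. The 15 genes with transcripts under 800 bases had a 3 h median of 0.19, with 4 below PBS, and the 23 of at least 2000 bases a median of -0.30, with 19 below. At 6 h the medians of these bands were -0.50 and -0.40, and all 15 short ones lay below PBS. All tested genes under 800 bases (255) had medians of 0.41 and -0.20. The bands were chosen after the values were seen, and the part of length in the 3 h ratios was not tested.

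Compared with 2 other large groups of housekeeping genes, the mitochondrial ribosomal protein genes stood lower at 3 h. The 66 tested genes for cytosolic ribosomal proteins, which make the ribosome of the cytosol, had a 3 h median of 0.58, with 32 at least 1.5-fold higher and 0 lower. The 82 tested nuclear genes of the respiratory chain, whose complexes also need the products of the mitochondrial ribosome, had a 3 h median of 0.51, with 31 higher and 2 lower. Among all tested genes, 15.7% were 1.5-fold higher and 14.5% lower at 3 h. The medians of both groups stayed above 0 under the 3 other scalings, at the lowest 0.29 (same sum) and 0.18 (quantile). That of the mitochondrial ribosomal protein genes stayed below 0 under all of them. At 6 h the medians were -0.15 and -0.29, against -0.46 for the mitochondrial ribosome. At least 1.5-fold lower were 2 (3.03%) and 15 genes (18.3%), against 28 of 74 (37.8%) for the mitochondrial ribosome and 15.2% of all tested genes. The respiratory chain count is thus near the background share. By sign alone the groups were closer at 6 h. Below PBS were 50 of 66 cytosolic ribosomal protein genes and 70 of 82 respiratory chain genes, against 67 of 74. Below all 6 columns without the fusion were 37 (56.1%) and 69 (84.1%), against 63 of 74 (85.1%) and 41.2% of all tested genes. A fall at 6 h was thus not particular to the mitochondrial ribosome. None of these differences could be tested.

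Proteins of the same particle that carry other symbols were checked beside them. The 7 such genes had medians of 0.15 and -0.49 (the first was -0.12 under the same-sum scaling). All 7 lay below PBS at 6 h, and Ptcd3 (-0.70) and Chchd1 (-0.59) were past 1.5-fold (15.2% of all tested genes). At 3 h, none of the 7 passed 1.5-fold, with Gadd45gip1 at -0.49 and Aurkaip1 at 0.36 at the ends.

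Genes that build the mitochondrial ribosome behaved otherwise at 6 h. Of 20 tested genes for its assembly and RNA maturation, 9 were at least 1.5-fold lower at 3 h and 0 higher, with a median of -0.49. Among all tested genes, 14.5% were lower and 15.7% higher. At 6 h 5 of the 20 were higher (17.4% of all tested genes) and 2 lower (15.2%). Their median was -0.01, or 0.06 under the same-sum scaling. Rnmtl1, a methyltransferase of the large ribosomal RNA, had 16.4 FPKM at 3 h in PBS but 5.63 with the fusion, and 19.6 and 19.0 FPKM at 6 h. Ddx28, an RNA helicase of large-subunit assembly, had 14.4 and 8.01 FPKM at 3 h and 15.2 and 36.3 FPKM at 6 h, log2 ratios of -0.78 and 1.20. Both were low at 3 h, and only Ddx28 was high at 6 h. Ngrn (0.83) and Mterfd1 (0.82) were the next highest at 6 h, and Ftsj2 (-0.99) and Trub2 (-0.91) the next lowest at 3 h.

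Of the 12 genes for mitochondrial translation factors, 2 were 1.5-fold lower at 3 h (14.5% of all tested genes) and 4 at 6 h (15.2%). Their medians were -0.22 and -0.45. Taco1, an activator of the translation of a cytochrome oxidase subunit, was at -1.30 at 3 h and 0.07 at 6 h, and Mtfmt, which formylates the initiator tRNA, at -0.65 and -0.41. The elongation factor genes Tsfm and Gfm1 were at -0.87 and -0.80 at 6 h, after -0.11 and 0.12 at 3 h. Another list of 12 joined genes for copying and transcribing mitochondrial DNA with regulators of nuclear genes (Nrf1, Gabpa, Gabpb1, Ppargc1b and Pprc1). Of these 12, 2 were lower (14.5% of all tested genes) and 1 higher (15.7%) at 3 h. At 6 h 1 of the 12 was lower (15.2%). The medians of this list were -0.45 and 0.02, and the second was -0.08 under the same-median and -0.04 under the quantile scaling. Peo1, the mitochondrial helicase, was at -0.87 and 0.35, Tfam, which packages mitochondrial DNA, at -0.83 and 0.16, and Polrmt, the mitochondrial RNA polymerase, at 0.81 and -0.17.

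**Figure D5:**
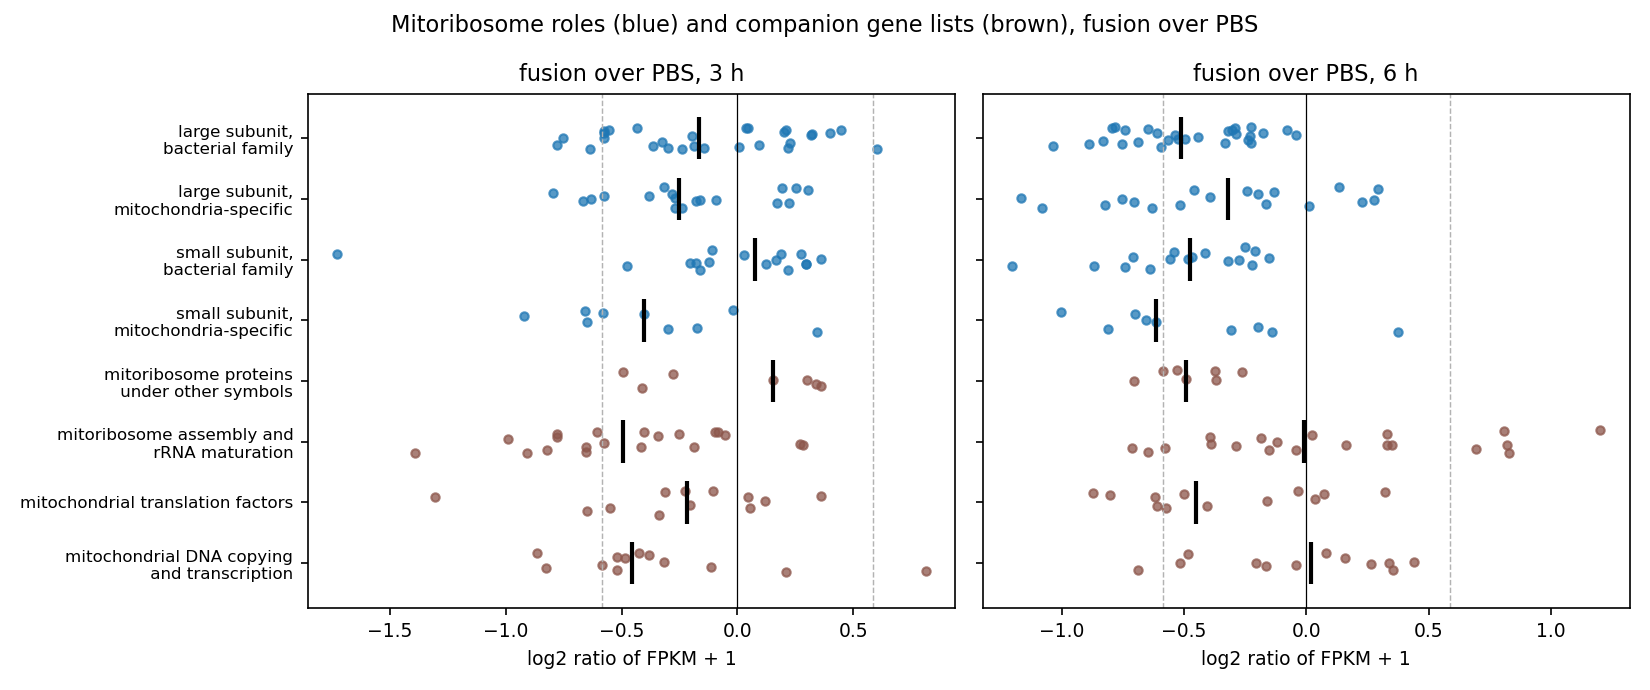
Log2 ratio of FPKM + 1 of the fusion over PBS at 3 h (left) and 6 h (right), 1 point per gene, in the 4 role lists of the mitochondrial ribosome (blue) and the 4 companion lists (brown); black bars are medians and dashed lines 1.5-fold. At 6 h the 4 role lists have medians from -0.62 to -0.32, while assembly and rRNA maturation is at -0.01. The list labelled mitochondrial DNA copying and transcription, which also holds regulators of nuclear genes, is at 0.02.

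Some of these genes share a start region with a neighbour on the other strand. By the outermost starts in GENCODE M21, which leave out pairs whose first exons overlap, 17 of the 74 had a head-to-head neighbour within 1000 bases, 16 of which were tested. By the starts in the RefSeq windows, a search added after the values were seen, 25 of 65 had one, and Mrpl46 and Mrps11 were each other's neighbour. In 3 of the 16 GENCODE pairs both genes were at least 1.5-fold lower at 3 h, against 3.12% of 770 tested genes with a tested neighbour. Mrps18b and Ppp1r10 have starts 45 bases apart by GENCODE but 756 by RefSeq. At 3 h Mrps18b was at -1.13 and Ppp1r10, a regulatory subunit of protein phosphatase 1, at -1.05. At 6 h they were at 0.08 and 1.25, Ppp1r10 having gone from 18.1 FPKM in PBS to 44.6 FPKM. Mrps27 and Ptcd2 (81 bases apart) were at -0.92 and -1.39, and Mrpl40 and the histone chaperone gene Hira (175 bases) at -0.67 and -0.63. Mrpl50 and Zfp189 (83 bases) stood on opposite sides at 3 h, at -0.80 and 1.07, with Zfp189 low at 0.844 and 2.87 FPKM. Mrpl41 and Pnpla7 (935 bases) were at -1.08 and -0.41 at 6 h. Of the 16 pairs, 2 had both genes 1.5-fold lower at 6 h, against 4.68% of the 770. At 6 h 3 of the 16 neighbours were 1.5-fold lower and 3 higher, near the shares of all tested genes, and the median 6 h ratio was -0.61 for the mitochondrial ribosomal protein genes and -0.14 for their neighbours. Strand use in the counting is not given in the sources used here, and 9 of the 74 genes share a locus record with another gene in the table. These are Mrpl19, Mrpl24, Mrpl41, Mrpl48, Mrpl49, Mrpl53, Mrps6, Mrps25 and Mrps27.

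The RNA came from cells with the markers of their label. All 6 mesenchymal genes checked were expressed (Vim at 3302 to 5128 FPKM), and none of 7 epithelial and 3 endothelial markers reached a mean of 1 FPKM. Of 4 macrophage markers 1, Cd68, did. For PBS and the fusion the sum of the 4 was 1.05 and 3.50 FPKM at 3 h and 1.42 and 2.81 FPKM at 6 h. Nearly all of this sum is Cd68, as Ptprc, Csf1r and Emr1 were at most 0.0523 FPKM in any column. The part of Cd68 in the results was not tested. From the smallest steps between low values, a rough estimate of 160 (Mrpl41) to 28969 fragments, with a median of 2922, stood behind a mitochondrial ribosomal protein gene in a column. The estimate uses the M21 lengths. It is too high for genes whose M21 length exceeds their table locus, among them Mrps26, which gave the highest value.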

How the data were processed

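RNA-seq of T11 cells was analysed from 1 deposited table of FPKM, in which the authors give 8 group averages. Per the submitters' processing notes, the build was mm9 and the tools were STAR 2.1.3, Cufflinks 2.2.1, Cuffnorm 2.2.1 and bcl2fastq 2.17.1.14, with settings not given in the sources used here. Log2 ratios of FPKM + 1 were computed with Python 3.11.15, pandas 2.3.3 and numpy 2.4.6 for genes whose mean reached 1 FPKM, with size rules of 1.5-fold and 2-fold in place of a test; the ratios were tested on simulated data. The genes and lists were chosen with earlier results of these data known. Named were genes past 2-fold, the 8 lowest and 8 highest ratios per time, the 5 lowest and 5 highest means, genes below the minimum or without a role, up to 3 per companion list and time, and head-to-head neighbours. Genes outside this rule (Mrps18c, the gene pair in the closing section) and the length bands were chosen after their values were seen. Mrpl37, also outside it, was chosen by its 6 h ratio. Further genes outside it appear only in statements on motifs, lengths, shared loci or the widest values. Lengths and neighbours came from GENCODE M21 and windows from RefSeq, matched by symbol. Positions are in mm9 unless named.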

Additional observations from a re-analysis of the deposited data

Results flagged for a closer look

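In 3 genes, Mrpl50, Mrps18b and Mrps31, the fusion lay below every other column of the same time at 3 h and above every other column of the same time at 6 h, with at least 1 log2 unit between the 2 ratios to PBS. The ratio at 6 h minus that at 3 h was 1.07 for Mrpl50, 1.21 for Mrps18b and 1.02 for Mrps31. Each group is a single average, so this difference was not tested.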

How the results depend on the processing

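Under the alternatives run, no called ratio (at least 1.5-fold) of a named mitochondrial ribosomal protein gene to PBS changed sign. Sizes were less steady. A ratio counted as moved if it shifted by more than the gene's standard deviation over the 6 columns without the fusion. With the same-sum scaling 58 ratios of named genes moved and 14 did not, and with the same-median scaling 35 and 37. The count of genes 1.5-fold lower at 6 h stayed between 22 and 35. The share of all tested genes moved as well, from 9.31% with pseudocount 5 to 19.6% with the same-median scaling. Without the minimum level it was 6.80% of all 23235 genes, a larger set that holds silent genes. The median over the 74 genes ranged from -0.46 (same-sum scaling) to -0.14 at 3 h and from -0.56 (same-median scaling) to -0.39 at 6 h; quantile normalisation put it at -0.26 at 3 h. Genes 1.5-fold lower at 3 h numbered 7 with pseudocount 5, 17 with the same-median scaling, 26 with the same-sum scaling and 18 against the mean of the PBS columns. The 1 gene 1.5-fold higher at 3 h became 0 with the 3 scalings and with Omomyc as reference (8.21% to 14.6% of all tested genes). Genes 2-fold lower at 3 h numbered 6 with the same-sum scaling (8.82% of all tested genes) and 1 against Omomyc (3.76%). At 6 h they numbered 3 with pseudocount 5 (1.48%), quantile (4.26%) or same-sum scaling (2.56%) and against FPP-1746 (3.21%) or Omomyc (3.07%). Against the mean PBS they numbered 2 (3.24%). Above all 6 columns at 3 h were 13 with quantile normalisation, a count for which the share of all tested genes was not computed. The cause of these moves was not tested. A peptide compared with itself gives no value. Leaving out a replicate was not possible on averages. No paired analysis was possible because the columns are group averages that carry no replicate number. Depth limits the lowest genes most, such as Mrpl41 with about 160 fragments.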

Other observations

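Mrpl46 and Mrps11 lie start to start on chromosome 7, Mrpl46 on the minus and Mrps11 on the plus strand. In the table Mrpl46 begins at 85927975 and Mrps11 at 85928017 (mm9), 42 bases apart. For PBS and the fusion, Mrpl46 stood at 26.6 and 21.7 FPKM at 3 h and at 27.7 and 32.7 FPKM at 6 h. Mrps11 stood at 27.1 and 33.5 FPKM at 3 h and at 28.7 and 24.5 FPKM at 6 h. In PBS both had nearly the same level, and with the fusion they were on opposite sides of PBS at both times, with log2 ratios of -0.28 and 0.23 for Mrpl46 and of 0.30 and -0.22 for Mrps11. This pair was chosen after its values were seen.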
